A study of Mus musculus with 4 samples.

Results

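The mRNAs of the brain serotonin system were followed in newborn mice whose mothers had received titanium dioxide nanoparticles (TiO2-NP) or vehicle during pregnancy. They comprised 10 genes, namely Tph2, Slc6a4, Fev, Htr1a, Htr1b, Htr2a, Htr2c, Htr3a, Htr7 and Maoa. These were chosen for their function, with earlier results of these data known. Every probe whose RefSeq accession belonged to 1 of them was read, which gave 12 probes of 55681 that were not controls. Htr2c had 3 of these probes and each other gene had 1, and each was spotted once on an array. Gene positions are those of RefSeq on GRCm38.p6, and where in its gene a probe lies is not given.

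Pregnant C57BL/6J mice received 25 μL of suspension into the trachea, carrying 100 μg of TiO2-NP per mouse (TiO2-H), or a particle-free vehicle prepared from that suspension (Sham). The labels write the suspension as 4 μg/L and the methods as 4 μg/μL. The protocol dates this to gestational day 10.5, whereas other labels of the samples give day 14. Whole brains were taken at postnatal day 1, and RNA of 2 offspring from each of 5 Sham dams or 6 TiO2-H dams was pooled separately for males and females. Each of the 4 pools, 1 per sex and exposure, was hybridized to a one-color array, where a spot is brighter the more of its target RNA is present. No group therefore had a replicate, and litters entered the data only as pools.

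Serotonin is made from tryptophan by tryptophan hydroxylase and aromatic amino acid decarboxylase, loaded into vesicles, released, taken back up by the serotonin transporter and broken down by monoamine oxidase. In brain it is made by neurons of the raphe nuclei, which lie in the brainstem and send axons through most of the brain before birth. Its receptors are G protein-coupled, apart from the Htr3 family, which are ion channels. In whole brain RNA, the few cells that make serotonin are diluted by all others, and fewer such cells cannot be told apart from less mRNA in each.

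Fev, also called Pet1, is the ETS family factor that marks serotonin neurons and activates the genes of serotonin synthesis and uptake in them. The 250 bases before a transcript start are shown for 6 genes, because these genes either mark serotonin neurons (Tph2, Slc6a4 and Fev) or had signals that did not overlap between the exposures (Fev, Htr1a, Htr2a and Htr7). They were taken from RefSeq on GRCm38.p6, read 5′ to 3′ on the strand of the gene, with the ETS core letters AGGAA and CGGAA of either strand in capitals. The windows lie at chr10:115185023-115185272, - strand (Tph2), chr11:76998347-76998596, + strand (Slc6a4), chr1:74885409-74885658, - strand (Fev), chr13:105443443-105443692, + strand (Htr1a), chr14:74640624-74640873, + strand (Htr2a), and chr19:36057361-36057610, - strand (Htr7). For Fev 65 bases of the window, and for Htr7 all 250, lie inside the annotated span of the gene, which reaches beyond the start used.
Tph2: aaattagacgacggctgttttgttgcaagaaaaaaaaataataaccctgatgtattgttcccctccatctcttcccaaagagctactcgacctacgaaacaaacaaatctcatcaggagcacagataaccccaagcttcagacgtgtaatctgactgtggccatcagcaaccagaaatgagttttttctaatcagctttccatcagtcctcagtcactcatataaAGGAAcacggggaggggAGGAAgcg
Slc6a4: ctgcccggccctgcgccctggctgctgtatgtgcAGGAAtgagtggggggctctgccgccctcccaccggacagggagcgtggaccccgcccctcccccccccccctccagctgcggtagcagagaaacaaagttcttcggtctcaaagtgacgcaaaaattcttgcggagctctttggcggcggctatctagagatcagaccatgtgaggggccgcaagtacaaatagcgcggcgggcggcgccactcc
Fev: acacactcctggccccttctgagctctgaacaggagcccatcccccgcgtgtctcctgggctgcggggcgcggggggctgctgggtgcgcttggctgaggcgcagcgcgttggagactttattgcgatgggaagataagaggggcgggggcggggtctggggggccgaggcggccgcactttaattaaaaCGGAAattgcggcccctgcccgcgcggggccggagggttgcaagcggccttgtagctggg
Htr1a: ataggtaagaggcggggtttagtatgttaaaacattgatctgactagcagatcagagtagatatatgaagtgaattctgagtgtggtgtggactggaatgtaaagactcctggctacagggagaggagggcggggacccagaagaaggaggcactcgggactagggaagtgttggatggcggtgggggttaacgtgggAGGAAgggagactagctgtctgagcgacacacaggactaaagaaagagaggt
Htr2a: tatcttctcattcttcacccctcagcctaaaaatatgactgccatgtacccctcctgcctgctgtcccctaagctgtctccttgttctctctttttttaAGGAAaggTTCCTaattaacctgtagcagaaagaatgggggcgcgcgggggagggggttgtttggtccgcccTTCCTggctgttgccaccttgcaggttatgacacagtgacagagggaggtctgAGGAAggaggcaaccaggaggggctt
Htr7: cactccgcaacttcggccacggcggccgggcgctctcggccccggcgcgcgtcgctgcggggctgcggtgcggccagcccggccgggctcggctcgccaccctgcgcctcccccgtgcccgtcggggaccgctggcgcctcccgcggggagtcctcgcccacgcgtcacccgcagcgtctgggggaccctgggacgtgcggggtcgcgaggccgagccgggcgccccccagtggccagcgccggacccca

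Of the 10 genes, 9 had such a window and 7 of these held AGGAA or CGGAA, against 71.4% of 32851 windows of the same length (AGGAA in 60.3%, CGGAA in 25.2%). The Fev window held 1 CGGAA, the Tph2 window 2 AGGAA, the Htr2a window 4 AGGAA, and the Htr7 window neither. The methylation arrays of these brains were not analysed here. CpG dinucleotides in the windows numbered 41 before Htr7, 22 before Fev, 18 before Slc6a4, 7 before Tph2, 6 before Htr1a and 4 before Htr2a, against a median of 6 over all windows. A match of letters is a description of the window and no binding site.

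The sex labels of the TiO2-H arrays went against the sex-linked mRNAs. Of 7 probes of Xist, Eif2s3y, Ddx3y, Kdm5d and Uty, 6 were well above background on some array, and all 6 differed between the TiO2-H arrays in the direction opposite to the labels, and between the Sham arrays in the direction of the labels. The Sham female array was not free of Y-linked signal, with Eif2s3y well above background at 419.5, against 3519 on the Sham male array and 6.40 on the array labelled TiO2-H male. Ddx3y behaved likewise, at 142.5 against 1418 and 7.18. Each direction given for a labelled sex therefore rests on the labels, while the comparison of both TiO2-H arrays with both Sham arrays does not depend on them. Both Sham arrays lay in one row of the slide and both TiO2-H arrays in the other, so that slide row, litters and exposure cannot be told apart.

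Of the 12 probes, 8 were well above background on all 4 arrays, a call of the scanner software for a spot clearly brighter than its surroundings. They read Tph2, Slc6a4, Fev, Htr2a, Htr3a, Htr7, Maoa and 1 of the 3 Htr2c probes. The Htr1a probe and a second Htr2c probe were well above background on 2 arrays each, and the Htr1b probe and the third Htr2c probe on none. The processed signals below are the background-subtracted intensities of the spots, given in a fixed order, first Sham male and Sham female, then the arrays labelled TiO2-H male and TiO2-H female. The TiO2-H arrays were brighter as a whole, by 1.07-fold (labelled male) and 1.09-fold (labelled female) at the 75th percentile. Every fold change and log2 difference is therefore relative to that percentile.

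**Figure D1:**
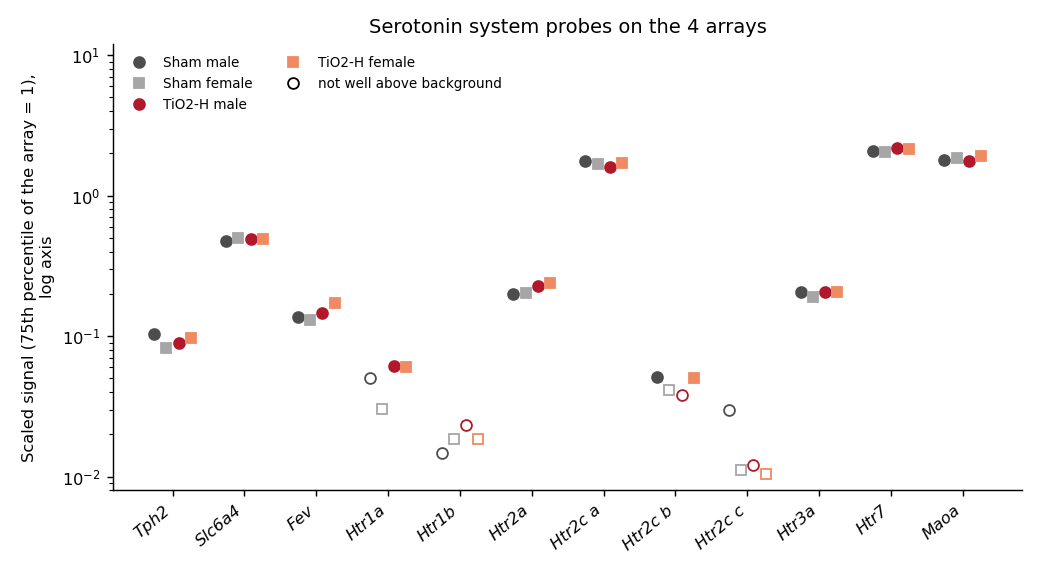
Scaled signal (processed signal divided by the 75th percentile of its array, log axis) of the 12 probes on the 4 arrays; open symbols are spots not well above background, and a to c are the 3 Htr2c probes in the order described. For 8 probes all 4 symbols are filled. Among the 10 probes well above background on any array, only Fev, Htr1a, Htr2a and Htr7 have both TiO2-H symbols above both Sham symbols. Both Sham symbols of Htr1a are open. Heights of different probes are not comparable.

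Among the genes that mark serotonin neurons, Fev was higher on both TiO2-H arrays, as were 26.3% of all probes tested, while Tph2 and Slc6a4 overlapped. None of these genes had an adjusted p from limma under 0.05. The mean ratio of Fev, 1.2-fold, lay inside the interval of Tph2, so a difference between these genes is not shown. Tph2 (NM_173391, chr10:115078641-115185022), the tryptophan hydroxylase of neurons, had processed signals of 84.5, 65.1, 77.4 and 84.5. Its 2 Sham arrays lay on either side of both TiO2-H arrays once scaled, and the mean difference of TiO2-H from Sham was 0.012 on the log2 scale (SE 0.15, 95% interval -0.45 to 0.47, adjusted p from limma 0.974). The interval ran from 0.734-fold to 1.39-fold. Among all pairs of arrays, Tph2 differed most between the Sham arrays themselves, at 0.785-fold in Sham female over Sham male.

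Slc6a4 (NM_010484, chr11:76998597-77032343), the serotonin transporter, is made in the newborn mouse brain by raphe neurons and for a short period also by thalamic neurons that project to the sensory cortex. Its processed signals were 383, 400, 425 and 431. After scaling they lay within a narrow band, with a log2 difference of 0.014 (SE 0.053, 95% interval -0.15 to 0.18, adjusted p from limma 0.902). This was the most evenly measured of the 3 genes, and the interval ended at 1.13-fold.

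Fev (NM_153111, chr1:74881501-74885473) had processed signals of 110, 103, 128 and 150. Both TiO2-H arrays lay above both Sham arrays, and the array labelled TiO2-H female was the highest. The ratio was 1.08-fold for the labelled males and 1.32-fold for the labelled females, where the scanner software gave an error of 0.24 on the log2 scale for either ratio. Over both sexes it was 0.26 on the log2 scale (SE 0.10, 95% interval -0.048 to 0.57), which did not pass the test (adjusted p from limma 0.381). With a normexp correction of the median signals the log2 difference was 0.156, from 0.051 in the labelled males and 0.262 in the labelled females. This correction adds an offset of 50 to every spot, which draws the ratios of dim spots toward 1-fold.

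Of the inhibitory receptors, Htr1a (NM_008308, chr13:105443693-105448133) is the somatic autoreceptor of serotonin neurons and also sits on their targets, and Htr1b (NM_010482, chr9:81628291-81633832) is the autoreceptor of their axon endings. The Htr1a probe had processed signals of 41.2, 24.1, 52.8 and 52.3, and was well above background on the 2 TiO2-H arrays and on neither Sham array. A dim spot was raised to the lowest signal well above background on its array (30.4 on Sham male and 31.7 on Sham female) unless it was already brighter. On this footing the ratio of Htr1a was 1.51-fold in the labelled females. This is no minimum, as the Sham female value was the floor itself and the probe was compared only through the TiO2-H arrays. In the labelled males the log2 ratio of Htr1a was 0.26, which uses the reading of a dim Sham spot and so gives no bound either. Over both sexes the fitted log2 difference was 0.425 (95% interval -0.011 to 0.86, adjusted p from limma 0.361), which is no bound. Before any correction by the software, the median pixel signals of this spot were 104.5, 96, 104 and 99.5, with local backgrounds of 36, 34, 31 and 35. These do not separate the exposures, and with a normexp correction of the median signals the log2 difference was -0.11, and -0.088 in the labelled females. The Htr1b probe lay between 11.9 and 20.2 and gave no difference, as it was well above background on no array.

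Of the Htr2 receptors, which act through phospholipase C, Htr2a (NM_172812, chr14:74640874-74706859) differed most evenly between the exposures. Its processed signals were 163, 161, 198 and 208. The 2 Sham arrays were nearly equal, at 1.01-fold, and both TiO2-H arrays lay above them, by 1.14-fold in the labelled males and 1.18-fold in the labelled females. The log2 difference was 0.21 (SE 0.049, 95% interval 0.064 to 0.36), with an unadjusted p from limma of 0.0188 and an adjusted p of 0.351. Htr2a was the only probe of the 10 with an unadjusted p under 0.05, and it did not pass after adjustment over all probes. The median pixel signals of its spot were 186, 184, 241 and 251.5, which separate the exposures as well.

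Htr2c (NM_008312, chrX:146962464-147197277), an X-linked gene, is strongly expressed in the choroid plexus, the tissue that makes cerebrospinal fluid, besides neurons. Its brightest probe had processed signals of 1416, 1339, 1376 and 1482. The exposures overlapped, with a log2 difference of -0.062 (SE 0.061, 95% interval -0.25 to 0.12, adjusted p from limma 0.639). The second probe had signals of 41.6, 32.8, 32.8 and 44.2, and was well above background only on the first and the last of these arrays. Its ratios, 0.738-fold in the labelled males and 1.23-fold in the labelled females, pointed in opposite directions, with software errors of 0.46 and 0.45 on the log2 scale. The third probe lay between 8.80 and 24.1.

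Htr3a (NM_013561, chr9:48899213-48911152), the ion channel subunit carried in brain by a class of cortical interneurons, had processed signals of 167, 152, 178 and 179. Once scaled, both TiO2-H arrays lay just below Sham male and above Sham female, and the log2 difference was 0.052 (SE 0.059, 95% interval -0.13 to 0.23, adjusted p from limma 0.684). Htr7 (NM_008315, chr19:35958415-36058133), which raises cyclic AMP, had processed signals of 1684, 1620, 1905 and 1873. Both TiO2-H arrays lay above both Sham arrays, by 1.06-fold in either labelled sex, and the log2 difference was 0.080 (SE 0.043, 95% interval -0.053 to 0.21, adjusted p from limma 0.460). Maoa (NM_173740, chrX:16619698-16687812), the X-linked monoamine oxidase that breaks serotonin down, had processed signals of 1440, 1463, 1525 and 1680. It overlapped between the exposures after scaling, with a log2 difference of 0.027 (SE 0.069, 95% interval -0.18 to 0.24, adjusted p from limma 0.857). For Slc6a4, Htr3a, Htr7, Maoa and the brightest Htr2c probe the 95% interval lay within 0.843-fold to 1.18-fold, so that a change of 1.5-fold in the mean of these pools was outside it. For the X-linked Maoa and Htr2c, Sham female over Sham male was 1.04-fold and 0.964-fold, and the log2 ratios of labelled female over labelled male within TiO2-H were 0.13 and 0.10.

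**Figure D2:**
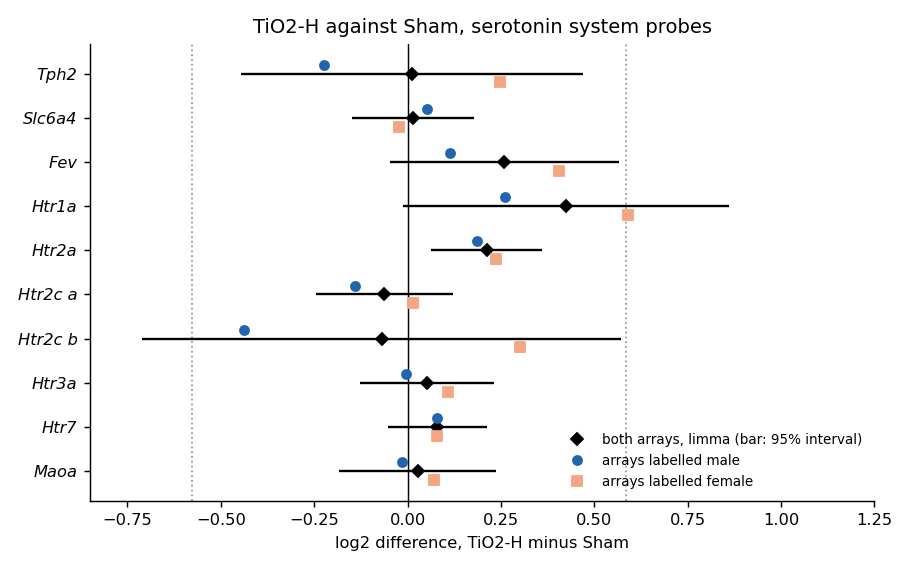
Log2 difference of TiO2-H minus Sham for the 10 probes well above background on at least 1 array. Diamonds and bars are the limma estimate over both arrays of each exposure and its 95% interval, circles and squares the single ratio in the labelled males and females, and dotted lines 1.5-fold and 0.67-fold. The bar of Htr2a alone lies entirely on 1 side of 0, and the ratio of Htr1a on the arrays labelled female is the only one past a dotted line.

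By the thresholds of the study's methods, at or above 1.5-fold or at or below 0.67-fold, none of the 10 probes compared on the arrays labelled male passed, against 7.37% of 33331 probes. Among the labelled females 1 of 10 passed, against 5.96% of 34068 probes, or 2.65% for those at or above 1.5-fold. This was Htr1a, at 1.51-fold over the floor of the Sham female array. Of the 8 probes well above background on both of these arrays, none passed. The ratio was above 1-fold for 5 of the 10 probes in the labelled males, against 53.0% of all probes, and for 9 of the 10 in the labelled females, against 51.0%. As a measure with no difference in exposure, 6.32% of 32057 probes passed between the 2 Sham arrays, and none of the 9 probes compared there. Both TiO2-H arrays lay above both Sham arrays for 4 of 10 probes (Fev, Htr1a, Htr2a and Htr7). They lay below them for none, against 26.3% above and 26.9% below among all 35626 probes tested. Htr1a was among the 10 only through the TiO2-H arrays, so its place above Sham is no result. Fev, Htr2a and Htr7 were among the 8 probes well above background on all 4 arrays. With limma no probe of the 10, and 0.0% of the 35626, had an adjusted p under 0.05. At an unadjusted p under 0.05 there was 1 of 10, against 13.9% of all probes, or 8.56% for those higher in TiO2-H. The 1 probe was Htr2a with all arrays, Htr1a without the Sham male or the Sham female array, and none without the array labelled TiO2-H female (0 of 10), while Fev and Htr2a made 2 without the array labelled TiO2-H male. These p-values treat the male and the female pool of an exposure as its 2 samples and measure only the spread between such pools. The median log2 difference was 0.040 over the 10 probes and 0.001 over all. With 2 arrays in either exposure, no exact permutation test could fall below p = 0.33. With each TiO2-H array set against the Sham array of the other label, Htr1a passed 1.5-fold on the array labelled TiO2-H male instead. Its log2 ratio there was 0.61, again over the floor of the Sham female array.

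**Figure D3:**
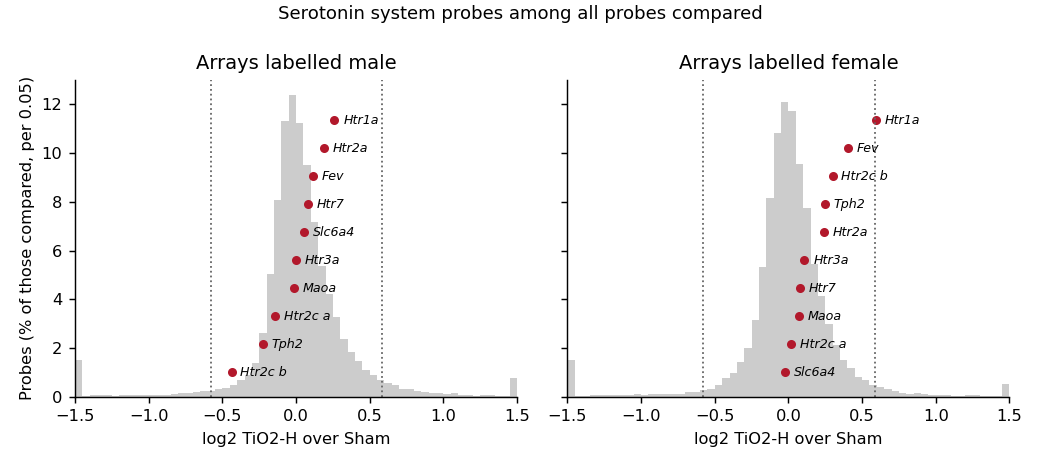
Log2 ratio of TiO2-H over Sham for the 10 probes (points, stacked in order of their ratio) over the distribution of all probes compared (gray bars, percent per 0.05; the outermost bars hold all ratios beyond the axis), with dotted lines at 1.5-fold and 0.67-fold. On the arrays labelled male all 10 points lie between the lines, and on the arrays labelled female Htr1a lies at the upper line.

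Among probes spotted 10 times, the SD between spots on 1 array had a median of 0.12 to 0.14 on the log2 scale where the signal was between 30 and 300, the range of Tph2, Fev, Htr2a and Htr3a. It was 0.059 to 0.064 where the signal was between 300 and 3000, the range of Slc6a4, Htr7, Maoa and the brightest Htr2c probe. These values cover single spots within an array and hold no spread between pools or arrays.

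Other genes that make, move, read or precede serotonin were taken as a list of 33, of which 32 had a probe and 27 had 1 well above background on at least 1 array. Their 36 probes had a median log2 difference of 0.022, and none had an adjusted p under 0.05 (6 of 36 had an unadjusted p under 0.05 from limma, against 13.9% of all probes). Past 1.5-fold or 0.67-fold were 1 of 35 probes on the arrays labelled male and 3 of 36 on the arrays labelled female, against the same 7.37% and 5.96% of all probes.

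In synthesis, Ddc, the decarboxylase that completes serotonin and also serves dopamine, had 2 probes that overlapped between the exposures, the brighter with signals of 1748, 1693, 1706 and 1876 and a log2 difference of -0.058. Tph1, the hydroxylase of peripheral tissue and the pineal gland, had signals of 146, 96.5, 129 and 164. Its ratio was 0.827-fold in the labelled males and 1.55-fold in the labelled females, and the Sham female array was the lowest of all. Spr, which makes the cofactor of tryptophan hydroxylase, had signals of 1613, 1610, 1972 and 2018. Its 2 Sham arrays were nearly equal and both TiO2-H arrays were higher, with a log2 difference of 0.19 (SE 0.043, adjusted p from limma 0.351).

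In storage and breakdown, Slc18a2, the vesicular transporter of serotonin and the other monoamines, was higher on both TiO2-H arrays with both of its probes. The brighter had signals of 624, 571, 727 and 752, and the dimmer 86.1, 99.5, 123 and 142. The log2 differences were 0.195 (SE 0.059) and 0.40 (SE 0.13), with adjusted p-values from limma of 0.355 and 0.356. With normexp on the median signals that of the dimmer probe was 0.143. Maob, the oxidase that serotonin neurons themselves carry, had signals of 290, 307, 336 and 345 and a log2 difference of 0.077 (SE 0.060, adjusted p from limma 0.564). Aldh2, an aldehyde dehydrogenase that acts on the product of monoamine oxidase, was lower on both TiO2-H arrays, with a log2 difference of -0.14 (SE 0.041, adjusted p from limma 0.351). Slc22a3, a low-affinity uptake carrier, was well above background on no array.

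Of 8 other receptor genes, Htr2b, Htr3b and Htr5a were not well above background on any array, and Htr1d, Htr1f, Htr4 and Htr5b were measured on all 4 arrays. Htr6, which raises cyclic AMP, had signals of 21.0, 29.99, 105 and 45.4 and was well above background on the 2 TiO2-H arrays. With both Sham spots raised to the floor described for Htr1a, its ratios were 3.21-fold in the labelled males and 1.31-fold in the labelled females. These are no minimum values, as the probe was compared only through the TiO2-H arrays. With normexp on the median signals, whose offset draws ratios of dim spots toward 1-fold, the log2 ratios were lower, at 1.02 and 0.26. The fitted log2 difference over both sexes was 1.035 (95% interval -0.42 to 2.49, adjusted p from limma 0.417), which is no bound. The 2 TiO2-H arrays differed more from each other than the array labelled TiO2-H female did from Sham female. A chaperone of the Htr3 receptors, Ric3, had 1 of 3 probes well above background on the array labelled TiO2-H female alone, with a signal of 157, and its other probes had log2 differences of 0.025 and -0.052.

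Among factors that specify serotonin neurons, Lmx1b, which acts upstream of Fev, was higher on both TiO2-H arrays with its brighter probe, at signals of 164, 153, 199 and 193 (log2 difference 0.19, SE 0.052, adjusted p from limma 0.351, and -0.015 with normexp on the median signals). Its second probe gave 0.16 (SE 0.12), with signals of 122, 102, 141 and 128. Gata2 had signals of 175, 182, 194 and 191 and a log2 difference of -0.007. Gata3 had signals of 1590, 1602, 1797 and 1837 and a log2 difference of 0.072 (SE 0.044, adjusted p from limma 0.491). Nkx2-2, a factor of the progenitors of these neurons and of oligodendrocyte precursors, was lower on both TiO2-H arrays with both probes once scaled. The first had signals of 331, 322, 297 and 309 (log2 difference -0.22, SE 0.045, adjusted p from limma 0.351). The second had signals of 465, 770, 488 and 498, so that its ratio of 0.591-fold on the arrays labelled female rests on the Sham female array. Once scaled, Sham male at 0.574 was close to TiO2-H at 0.563 and 0.572. Without Sham female the log2 difference of this probe was -0.017.

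**Figure D4:**
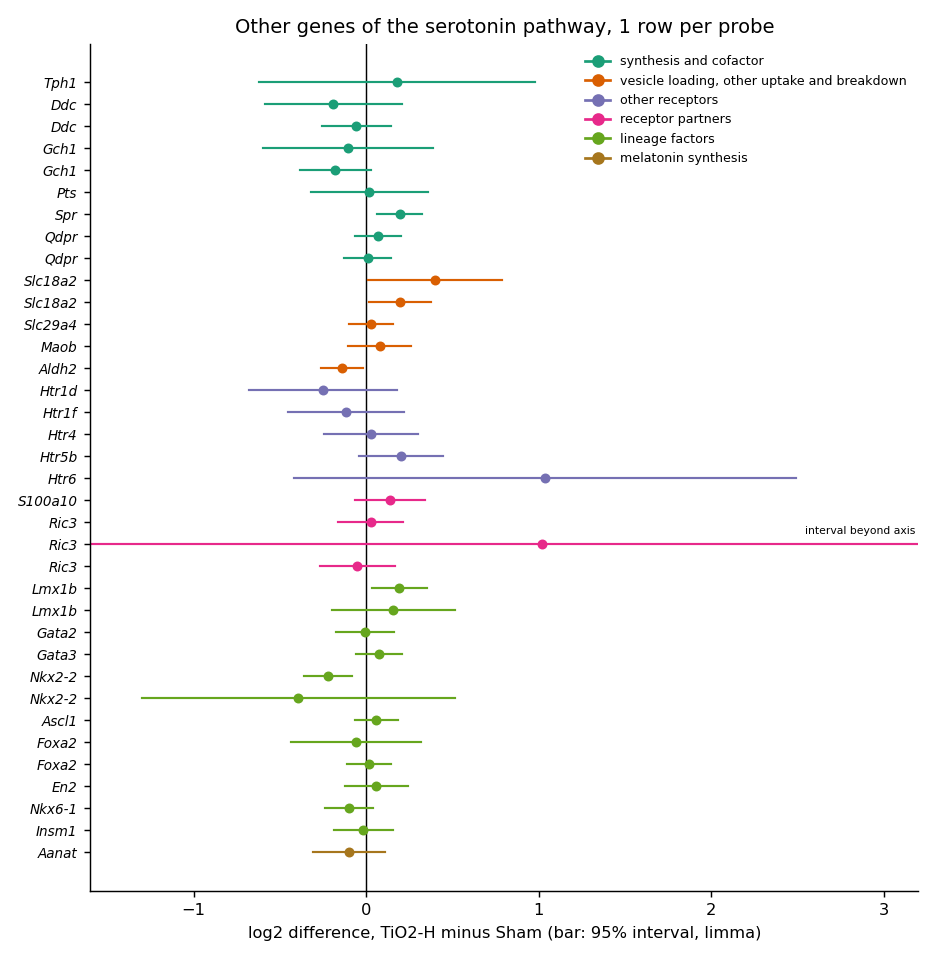
Log2 difference of TiO2-H minus Sham with its 95% interval from limma for the 36 probes of the other pathway genes, 1 row per probe, colored by role. The estimates of both Slc18a2 probes lie to the right of 0 and those of both Nkx2-2 probes to the left, and the widest intervals are those of the dim Htr6 and Ric3 probes.

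Markers of the tissue and of neighboring cells are given as sums of scaled signals, each marker by its brightest probe. All 4 neuron, 4 radial glia and astrocyte and 3 oligodendrocyte lineage markers were well above background on all 4 arrays, as whole brain tissue would show. The 5 hindbrain markers, which bear on how much brainstem a pool held, summed to 2.08 on either Sham array and to 2.06 and 2.07 on the TiO2-H arrays. Its members went both ways, with log2 differences of 0.195 for Hoxa2, 0.098 for Egr2, 0.065 for Hoxa3, -0.14 for Hoxb3 and -0.20 for Hoxb2. The 4 thalamus markers summed to 16.5 and 17.6 on Sham and 17.1 and 16.9 on TiO2-H, with log2 differences from -0.29 for Gbx2 to 0.23 for Lhx9. The 6 choroid plexus markers summed to 92.7 and 90.2 on Sham and 88.1 and 89.7 on TiO2-H, a sum that is mostly Ttr. These markers went both ways, with log2 differences of 0.133 for Otx2, 0.063 for Aqp1, 0.015 for Clic6, -0.02 for Folr1, -0.055 for Ttr and -0.07 for Kl. The 5 markers of dopamine and noradrenaline neurons, which share Ddc and Slc18a2 with serotonin neurons, summed to 6.00 and 6.33 on Sham and 5.95 and 5.86 on TiO2-H. Neuron markers summed to between 312 and 324 on all arrays, a sum that is mostly Stmn2 and Tubb3. Their log2 differences were -0.006 for Stmn2 and -0.055 for Tubb3, but 0.194 for Snap25 and 0.152 for Dcx.

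The sums of several lists did not overlap between the exposures. Among all single probes tested, 26.3% lay above and 26.9% below both Sham arrays. No such share was computed for sums, so no result is drawn from their lack of overlap. The hindbrain, choroid plexus and dopamine and noradrenaline sums above were lower on both TiO2-H arrays, while the neuron and thalamus sums overlapped. The sums that follow did not overlap either, though each is carried mostly by its brightest probe. The 3 microglia markers summed to 11.6 and 11.4 on Sham and 12.6 and 12.7 on TiO2-H. For the 2 endothelium markers the sums were 6.73 and 6.36 against 7.41 and 7.31. Cldn5 had a log2 difference of 0.17, and Pecam1 had log2 ratios of 0.29 and -0.054 in the labelled males and females. Radial glia and astrocyte markers summed to 120 and 110 against 125 and 128. Their log2 differences included 0.18 for Fabp7, 0.048 for Sox2 and -0.011 for Vim. Oligodendrocyte lineage markers summed to 10.5 and 10.5 against 11.7 and 11.9. Here the log2 differences were 0.213 for Olig1, 0.112 for Pdgfra and 0.005 for Olig2. The 5 markers of erythroid cells and platelets summed to 65.7 and 62.9 on Sham and 54.4 and 54.9 on TiO2-H, a sum that is mostly Hba-a1 (log2 difference -0.25). Of the platelet markers, Pf4 had a log2 difference of 0.015 and Itga2b was too dim to be well above background anywhere. Aanat, the only pineal marker with a probe, had a lowest scaled signal of 1.31, on the array labelled TiO2-H female. Of 3 markers of other organs, the liver marker Alb was well above background on no array, whereas the heart marker Myh6 (signals of 155 to 200.1) and the pancreas marker Ins2 (442 to 476) were on all 4. No marker had an adjusted p under 0.05 in limma, and the part of these lists in the values of Fev, Htr2a, Slc18a2 and Nkx2-2 was not tested.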

How the data were processed

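Total RNA of newborn whole brain, pooled within each of 4 groups, was labeled with Cy3 and hybridized to 1 array per group. Values were deposited as intensity, once per array as scanner files and once as a joint table. Per the file headers, version 10.10.1.1 of Feature Extraction made them, correcting each array for background and spatial trends but not scaling arrays to each other. All 237220 values of the joint table equalled the scanner files' processed signals within a relative tolerance of 0.0001.

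Here, control spots and spots marked as outliers were left out, spots of a probe averaged as log2 signal, and the log2 of the array's 75th percentile subtracted. A probe was compared where at least 0.5 of its spots were well above background on at least 1 array of the comparison, and a dim value under the lowest signal well above background on its array (30.4, 31.7, 29.5 and 23.3) was raised to that signal. Probes were named through RefSeq accessions of GRCm38.p6, which held 98.0% of the 21887 NM and NR accessions; positions of probes are not given, and probes under other identifiers were not named. Within a labelled sex no test was possible. Both TiO2-H arrays were tested against both Sham arrays over 35626 probes with limma 3.58.1 in R 4.3.3 (lmFit and eBayes, Benjamini-Hochberg), without a sex term. The remaining computation was done in Python 3.11.15 with pandas 2.3.3 and numpy 2.4.6, and was tested on simulated data. Precision is limited by the number of arrays.

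The members and the gene and marker lists were chosen with earlier results of these data known. Every probe of the 10 members is given. Of the other 33 pathway genes, those past a threshold in either labelled sex, the 5 with the lowest p, and those directly beside a member in the pathway are named. Receptors named as not well above background were added after their values were seen. The alternatives were no scaling, quantile normalization, a normexp correction (offset 50) of the median signals, the deposited table, no floor, 1 floor for all arrays (chosen after seeing the data), stricter and no filters, outlier spots kept, a 2-fold threshold, pairing across the sex labels, labelled or crossed sex as a block, and each array left out.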

Additional observations from a re-analysis of the deposited data

Results flagged for a closer look

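For 6 member probes and 1 probe of Tph1, the single ratio on the arrays labelled male and that on the arrays labelled female pointed in opposite directions. With 1 array per group the difference between the sexes was not tested, and the sex labels of the TiO2-H arrays went against the sex-linked mRNAs. The log2 fold changes on the arrays labelled male and female were -0.22 and 0.25 for Tph2, -0.28 and 0.63 for Tph1, -0.44 and 0.30 for the second Htr2c probe, and -0.14 and 0.016 for the brightest Htr2c probe. They were 0.052 and -0.023 for Slc6a4, -0.004 and 0.11 for Htr3a, and -0.015 and 0.070 for Maoa. These 3 pairs lay within the error of 0.20 to 0.22 that the scanner software gave for a single ratio. The pairs of Tph2 (error 0.27), the brightest Htr2c probe (0.20) and the second Htr2c probe (0.46 and 0.45) lay within theirs as well. Among these single ratios, only those of Tph1 went past their errors, which were 0.24 and 0.25. Such an error belongs to 1 ratio of spots. It holds no spread between pools and does not measure the difference between the labelled sexes. With each TiO2-H array set against the Sham array of the other label, both ratios of Tph1 were above 1-fold. Those of the brightest and of the second Htr2c probe were then both below 1-fold.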

How the results depend on the processing

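No member probe had an adjusted p under 0.05 under any alternative run, including the replicate block by labelled sex (0 probes) or by sex crossed within TiO2-H (0 probes). At an unadjusted p the count of 1 became 4 without scaling, 2 without a filter and 0 with the crossed block, and 0 to 2 when an array was left out: Htr2a alone carried it with all arrays, Htr1a alone without either Sham array, Fev and Htr2a without the array labelled TiO2-H male, and no probe without the array labelled TiO2-H female. Labelled sex is no replicate number, and 2 pairs are too few to show that it pairs the arrays. The count past the fold thresholds on the arrays labelled female, 1 (Htr1a), became 0 with quantile normalization, normexp, the filter on both arrays, the 2-fold threshold and pairing across the labels. That on the arrays labelled male, 0, became 1 with quantile normalization (the second Htr2c probe) and 1 with pairing across the labels (Htr1a). In the wider list, 1 on the arrays labelled male became 0 with the filter on both arrays and 2 with pairing across the labels, and 3 on the arrays labelled female (Ric3, Nkx2-2 and Tph1) became 1 at 2-fold, 2 with normexp (without Tph1), 2 with the filter on both arrays (without Ric3) and 2 with pairing across the labels (Ric3 and the dimmer Slc18a2 probe). The log2 difference changed sign under normexp for Tph2 (-0.003), Htr1a (-0.11, and -0.088 on the arrays labelled female), the second Htr2c probe (0.165), the brighter Lmx1b probe (-0.015), Maob (-0.001) and Gata2 (0.074). Without scaling it changed sign for the brightest (0.053) and the second Htr2c probe (0.046), the brighter Ddc probe (0.057) and Gata2 (0.108), and with quantile normalization for Tph2 (-0.014) and Gata2 (0.009). When an array was left out, the values ranged from -0.163 to 0.186 for Tph2, -0.029 to 0.058 for Slc6a4, -0.281 to 0.143 for the second Htr2c probe, -0.003 to 0.107 for Htr3a, -0.040 to 0.095 for Maoa, -0.107 to 0.463 for Tph1, -0.123 to 0.008 for the brighter Ddc probe and -0.052 to 0.038 for Gata2. The cause of these shifts was not tested. Fev, Htr2a, Htr7, Spr, Aldh2, Gata3 and both probes of Slc18a2 and Nkx2-2 kept their direction under every alternative run. For most alternatives this was fixed in advance. Both TiO2-H arrays lay on the same side of both Sham arrays for these probes, so leaving out an array could not change the sign. The deposited table and the sex blocks could not change it either. Dim spots limit what Htr1a, Htr1b, Htr6 and 2 of the Htr2c probes can show.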
